A study of Mus musculus with 6 samples.

Results

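The E proteins and their Id inhibitors were followed as 6 genes, Tcf3, Tcf4, Tcf12, Id1, Id2 and Id3, of the 27179 genes counted by RNA-seq in germinal center (GC) B cells. They were chosen by name, as the 3 mouse E protein genes and 3 of the Id genes. Each was found in the table by its Entrez identifier. The cells were splenic B cells that bound the hapten NP, carried IgG1 and B220, and lacked CD38, CD138, IgM, IgD and Gr1. They came from WT mice and from mice lacking the IL-21 receptor (Il21r-/-, labelled Il21r KO), all on a C57BL/6 background, on days 7, 10 and 14 after intraperitoneal NP-KLH in alum. There were 6 libraries, 1 per genotype and day, so that each genotype had 3 libraries. By the study's methods the B cells came from donor bone marrow, since irradiated Ly5.1 mice had been reconstituted with WT or Il21r-/- marrow, so that tissues not made from marrow kept the genotype of the host. The methods give mice of both sexes over a range of ages, and the age behind each library is not given in the sources used here. The labels give 1 independent mouse per library, whereas the methods give more mice per genotype than libraries and the supplement gives several mice of each genotype for day 7. The sources thus differ on the number of animals behind a library, and p-values measure the spread between these libraries.

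E proteins are basic helix-loop-helix transcription factors that bind E box sequences as dimers, and they are required for B lineage commitment and for the Ig loci to rearrange. Id proteins have the helix-loop-helix but no basic region, so an E protein paired with an Id protein cannot bind DNA. In GC B cells the balance of E proteins to Id proteins is linked to proliferation and to Ig expression, and TCF3 and ID3 are recurrently mutated in Burkitt lymphoma, a tumor of GC B cells.

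Tcf3, which encodes the E2A proteins E12 and E47, lies on chromosome 10 from 80409541 to 80433976 (all positions are of GRCm38.p6). Tcf12, which encodes HEB, lies on chromosome 9 from 71844252 to 72111893. The inhibitor Id1 lies on chromosome 2 from 152736251 to 152737410, Id2 on chromosome 12 from 25093799 to 25096092 and Id3 on chromosome 4 from 136143822 to 136145392. The exons of the 6 genes shared no bases with exons of any other annotated gene. Tcf12 alone had a stretch of at least 100 bases that was at least 95% identical to a transcript of another gene, 107 bases of Gm34885.

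The RefSeq promoter windows of Id3 and Id2 are printed because these were the Id genes with more than a few reads and because an E box is the sequence that E proteins bind. Each window is the 250 bases before the annotated start, 5′ to 3′ on the strand of the gene, with any E box, CANNTG, in capitals.
Id3, chr4:136143572-136143821, plus strand: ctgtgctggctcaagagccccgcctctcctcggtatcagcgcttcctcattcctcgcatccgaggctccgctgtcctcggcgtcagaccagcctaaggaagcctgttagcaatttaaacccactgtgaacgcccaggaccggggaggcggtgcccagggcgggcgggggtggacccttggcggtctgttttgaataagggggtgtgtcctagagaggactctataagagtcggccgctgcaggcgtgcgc
Id2, chr12:25096093-25096342, minus strand: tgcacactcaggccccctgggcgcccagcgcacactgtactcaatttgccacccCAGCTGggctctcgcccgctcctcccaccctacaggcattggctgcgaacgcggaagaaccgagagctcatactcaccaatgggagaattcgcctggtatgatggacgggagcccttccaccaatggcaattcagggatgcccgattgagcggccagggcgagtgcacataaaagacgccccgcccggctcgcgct

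The Id2 window held 1 E box, CAGCTG, starting 196 bases before the start, and the Id3 window held none. CANNTG reads the same on both strands and includes CAGCTG and CAGGTG. Of 32851 mouse windows of this length, 66.2% held CANNTG and 13% held CAGCTG. Neither window held TTCNNNGAA, the letters of a STAT site, which also reads the same on both strands and was present in 7.02% of the windows. A match is a run of letters and not a bound site.

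The reads on genes numbered 21353438 to 27435124 per library. Il21r, the deleted gene, had 345.8, 263 and 246.6 CPM (counts per 1000000 reads of a library, scaled by TMM factors) in WT on days 7, 10 and 14 and 105.8, 127.6 and 112.7 CPM in Il21r-/- cells. Its level in Il21r-/- cells was below that of WT on all 3 days (log2 fold change of WT over Il21r-/- 1.29 ± 0.132 SE over 3 days, adjusted p = 0.00137, edgeR's quasi-likelihood test), as the labels state, although reads remained. The 10 GC B cell markers, among them Bcl6, S1pr2 and Mef2b, summed to 7439 to 8907 CPM in WT and 7737 to 9724 CPM in Il21r-/- libraries. The 7 T cell markers summed to at most 3.84 CPM, the 7 NK and innate lymphoid markers to at most 0.696 CPM with Ncr1 at 0, and the 4 plasmacytoid dendritic cell markers to at most 0.131 CPM. The last 2 lists matter here because Id2 is abundant in innate lymphoid cells and Tcf4 in plasmacytoid dendritic cells. Of the 7 myeloid and dendritic markers, which summed to 55.2 to 82 CPM, Batf3 was at 0 and Flt3 alone had 52.88 to 76.73 CPM. Of the 4 endothelial markers, which summed to 24.4 to 66.38 CPM, Tek was at 0 and Pecam1 held nearly all reads. In bulk RNA, fewer cells of a type and less RNA per cell cannot be told apart.

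Within the family, Id3 and Tcf3 were the abundant transcripts. Divided by gene length, so that genes can be compared, Id3 stood at 156.3 to 205 CPM per kilobase and was the highest member in 6 of 6 libraries, at the 93.74 to 95.05 percentile of the 11005 genes tested. Tcf3 followed at 63.51 to 100.6 CPM per kilobase, 1.72 to 3.05 times below Id3. Tcf4 was next at 9.889 to 16.85 CPM per kilobase, 5.3 to 8.04 times below Tcf3. Id2 at 7.511 to 9.535 and Tcf12 at 6.494 to 8.981 CPM per kilobase overlapped, with Id2 the higher in 4 of 6 libraries, so these neighbours did not differ beyond their spread. Tcf4 was above both in 6 of 6 libraries, the smallest ratios being 1.32 to Id2 and 1.31 to Tcf12.

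**Figure D1:**
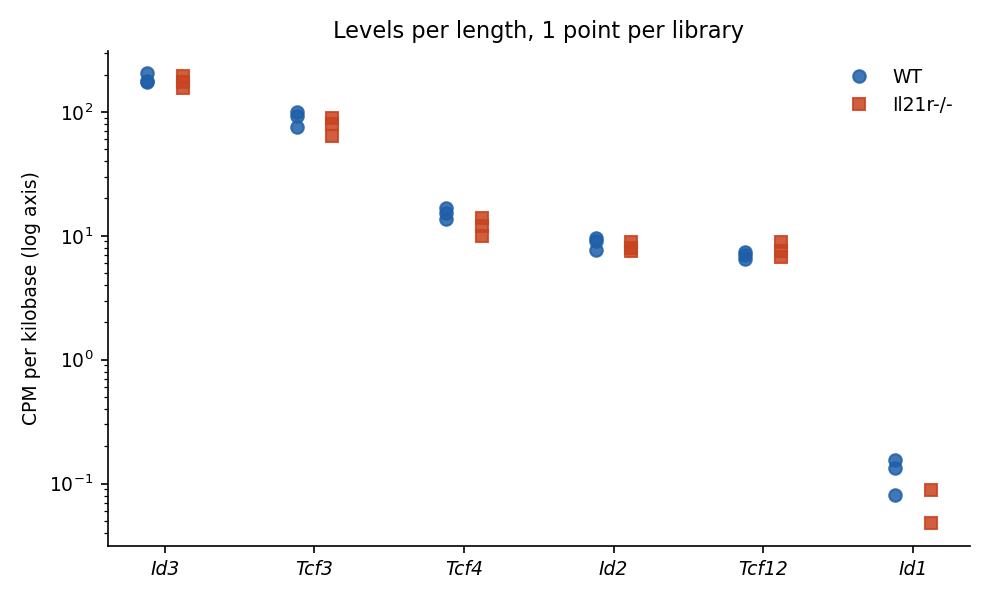
CPM per kilobase of gene length on a log axis for the 6 genes, ordered by level, with 1 point per library (circles WT, squares Il21r-/-). Id3 and Tcf3 lie above 60 CPM per kilobase in every library, Tcf4, Id2 and Tcf12 between 6.494 and 16.85, and Id1 below 0.2, with its library at 0 reads left out of the log axis.

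Id1, an inhibitor induced by BMP signals in many cells, was at the limit of detection. It had 2, 3 and 3 reads in WT on days 7, 10 and 14 and 1, 0 and 2 reads in Il21r-/- cells. No library exceeded the 3 reads that a count of 0 allows, so no fold is given, and Id1 was the 1 member of 6 that did not pass the filter on low counts. Id4, the other Id gene, had 0 reads in all 6 libraries. The Id transcripts of these cells were thus those of Id2 and Id3, with Id3 holding 93.45 to 94.52% of Id reads and, per length, 94.99 to 95.83%.

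Tcf3 had 265.7, 356.7 and 330.7 CPM in WT on days 7, 10 and 14, and 225.3, 318.5 and 282.1 CPM in Il21r-/- cells. WT was the higher on each day, but the day 7 WT library lay below 2 of the Il21r-/- libraries. Tcf4, which encodes E2-2 and lies on chromosome 18 from 69343429 to 69687967, had 104.7, 129.4 and 116.8 CPM in WT and 92.08, 106.2 and 75.96 CPM in Il21r-/- cells. WT was again higher on each day, and the groups overlapped only between the day 7 WT and the day 10 Il21r-/- library. Tcf12 had 32.87, 35.33 and 37.32 CPM in WT and 34.17, 45.45 and 38.34 CPM in Il21r-/- cells, so this member was the one with the higher value in Il21r-/- on each day, with a wide gap on day 10 only.

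Id2 had 12.13, 11.46 and 9.834 CPM in WT and 11.3, 10.06 and 9.555 CPM in Il21r-/- cells. Id3 had 195.3, 165.2 and 168.2 CPM in WT and 184.9, 149 and 166.2 CPM in Il21r-/- cells. Both were slightly higher in WT on each day and highest on day 7 in both genotypes. Higher in WT on all 3 days were 25.4% of the genes tested, and higher in Il21r-/- on all 3 days were 27.9%. The WT and Il21r-/- libraries overlapped for each of the 6 genes, whereas they did not for 18.4% of the genes tested.

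**Figure D2:**
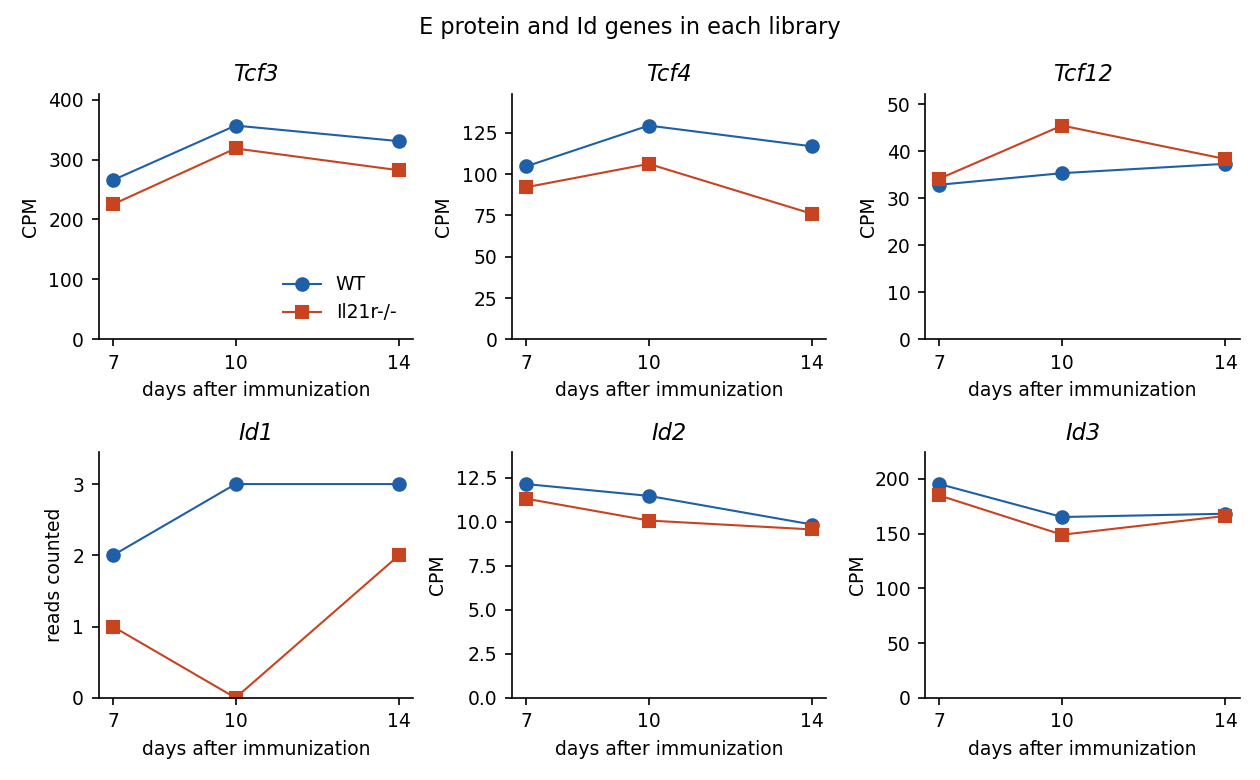
CPM of each gene against days after immunization (reads counted for Id1), with WT as blue circles and Il21r-/- as red squares, 1 library per point and each axis from 0. Tcf3, Tcf4, Id2 and Id3 are higher in WT on each day and Tcf12 in Il21r-/-, and Tcf3 and Tcf4 are highest on day 10 in both genotypes.

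Whether the loss of the receptor changed the family was tested over the 3 days with a linear term for day. None of the 5 members tested passed (5.92% of all genes did). The log2 fold change of WT over Il21r-/- was 0.21 ± 0.137 SE for Tcf3 (95% confidence interval -0.10 to 0.52, adjusted p = 0.430, edgeR's quasi-likelihood test with Benjamini-Hochberg adjustment, as for the values that follow). It was 0.36 ± 0.140 for Tcf4 (0.04 to 0.68, adjusted p = 0.184) and -0.16 ± 0.125 for Tcf12 (-0.45 to 0.12, adjusted p = 0.503). The inhibitors had smaller values, 0.11 ± 0.127 for Id2 (-0.18 to 0.40, adjusted p = 0.669) and 0.08 ± 0.108 for Id3 (-0.17 to 0.32, adjusted p = 0.728). Leaving out the Il21r-/- day 10 library took Tcf12 to -0.04 (-0.039) and Id3 to 0.001. In folds, the interval of Id3 ran from 0.891 to 1.25 and that of Id2 from 0.884 to 1.32.

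The libraries of a day deviated together, so the comparison was also made with day as a block, where 22.9% of all genes passed and 9.33% were higher in WT. In that fit Tcf3 and Tcf4 were higher in WT. Tcf3 was 1.16-fold higher (log2 fold change 0.21 ± 0.0739 SE, adjusted p = 0.0378, edgeR) and Tcf4 1.29-fold higher (0.36 ± 0.0876, adjusted p = 0.00289, edgeR). Tcf12 (-0.15, adjusted p = 0.284), Id2 (0.11, adjusted p = 0.588) and Id3 (0.08, adjusted p = 0.497) did not pass in edgeR's blocked fit. The blocked call of Tcf3 was lost when any 1 library was left out (adjusted p 0.0767 to 0.243, edgeR), with log2 fold changes of 0.201 to 0.234 that were about as large. In the blocked fit, the other library of that day then stands alone and carries no genotype comparison. Leaving out either library of a day thus takes out the whole day and is nearly the same check. That of Tcf4 was lost without the WT day 14 library (0.24, adjusted p = 0.212, edgeR) or its Il21r-/- counterpart (0.24, adjusted p = 0.204, edgeR), where the difference fell more than 1.5 times. Without the Il21r-/- day 10 library, both genes also passed with the linear day term (Tcf3 0.34, adjusted p = 0.0370, and Tcf4 0.48, adjusted p = 0.0119, edgeR), as did 2165 genes or 19.7% of all. In the same linear fit Tcf3 had 0.10 (0.104, adjusted p = 0.864, edgeR) without the WT day 10 library, and Tcf4 had 0.20 (0.199, adjusted p = 0.656, edgeR) without the Il21r-/- day 14 library.

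**Figure D3:**
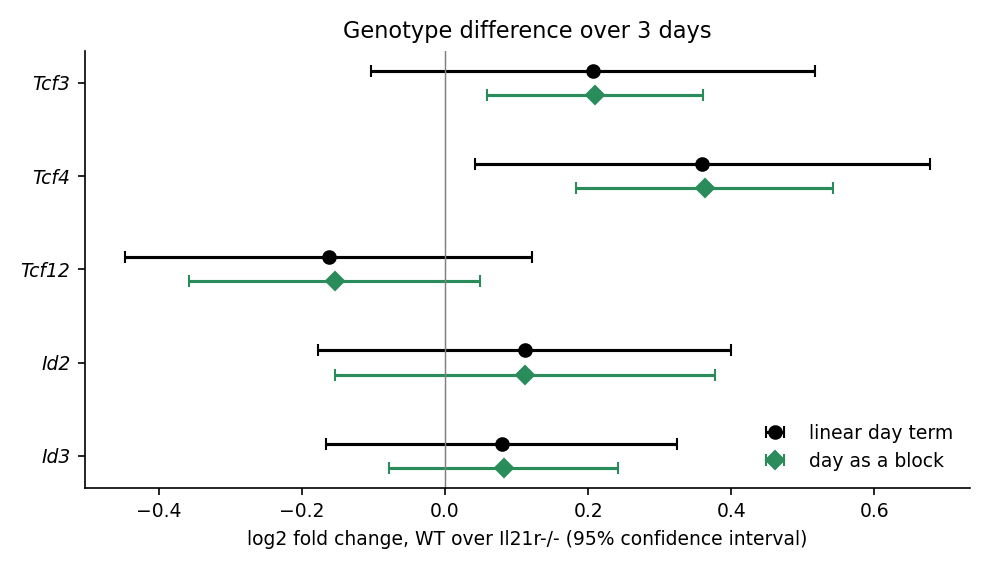
Log2 fold change of WT over Il21r-/- over 3 days for the 5 members tested, as points with 95% confidence intervals, with a linear day term (black circles) and with day as a block (green diamonds). Values hardly differ between the fits, from 0.36 for Tcf4 to -0.16 for Tcf12, and only the blocked intervals of Tcf3 and Tcf4 and the linear interval of Tcf4 lie above 0.

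On single days, with 1 library per genotype and the spread taken from the whole set, none of the 5 tested members passed edgeR's likelihood ratio test on day 7 (1.07% of all genes did), day 10 (3.1%) or day 14 (3.28%). The widest gap was that of Tcf4 on day 14, 0.62 ± 0.269 SE or 1.54-fold, with an unadjusted p = 0.0216 and an adjusted p = 0.287 in edgeR's fit. On days 7 and 10 the log2 fold change of Tcf4 was 0.19 and 0.29, but 0.053 and 0.492 with the linear day term kept. With dispersions from the day block, the adjusted p of Tcf4 on day 14 was 0.00637 (edgeR), where 9.59% of all genes passed. With dispersions estimated without the Il21r-/- day 10 library it was 0.0327 (edgeR), where 6.4% passed. All 6 libraries stayed in these fits, so the log2 fold change was still 0.62. Tcf12 had its widest gap on day 10, -0.36 ± 0.249 (adjusted p = 0.713, edgeR).

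The share of Tcf12 among E protein reads depends on the levels of all 3 E protein genes, and Tcf12 itself passed in neither fit over 3 days. Tcf12 held 8.15% of the E protein reads in WT on day 7 (95% Wilson interval 7.65 to 8.68%), 6.77% on day 10 (6.35 to 7.22%) and 7.70% on day 14 (7.20 to 8.23%). In Il21r-/- cells it held 9.72% (9.09 to 10.4%), 9.67% (9.16 to 10.2%) and 9.67% (9.10 to 10.3%). The 3 Il21r-/- libraries lay above the 3 WT libraries, although the CPM of Tcf12 overlapped between genotypes. For 18.4% of the genes tested the groups did not overlap in CPM, and no such rate was computed for shares. The Wilson intervals cover counting error only, and the share was not tested between genotypes. Tcf4 held 24.09 to 25.97% in WT and 26.19, 22.59 and 19.16% in Il21r-/- cells on days 7, 10 and 14, a share that overlapped between genotypes. That of Tcf3, 65.88 to 68.41% in WT and 64.08 to 71.17% in Il21r-/- cells, overlapped as well. Per length, Tcf3 held 77.22 to 82% of the E protein transcripts of a library.

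Per length, Id transcripts outnumbered E protein transcripts in 6 of 6 libraries. The summed Id genes were 2.26, 1.47 and 1.59 times the summed E protein genes in WT on days 7, 10 and 14, and 2.47, 1.46 and 1.88 times in Il21r-/- cells. The ratio was thus highest on day 7 in both genotypes, nearly equal between them on day 10, and higher in Il21r-/- on days 7 and 14. Over 3 libraries the ratio was 1.77 ± 0.426 (SD) in WT and 1.93 ± 0.507 in Il21r-/- cells, so the spread between days exceeded the gap between genotypes. Without division by length the order turned, with 0.338 to 0.558 Id reads per E protein read, since E protein transcripts are the longer ones. Counts per length depend on the transcript length used and say nothing of protein.

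**Figure D4:**
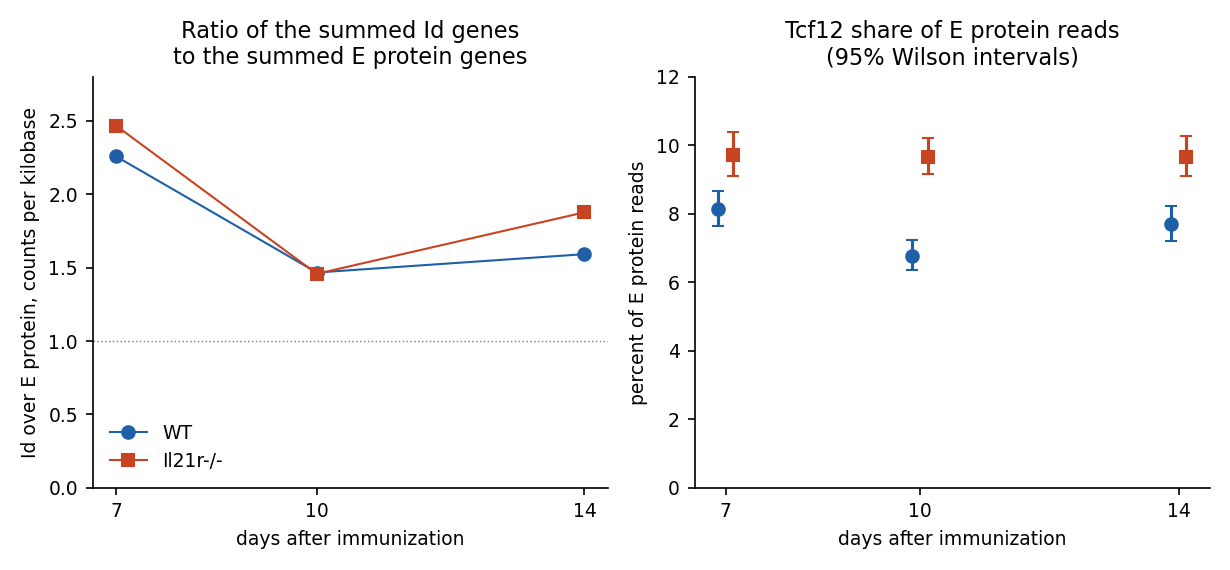
Left, summed Id genes over summed E protein genes in counts per kilobase against days after immunization, 1 library per point, with a dotted line at equality. Right, percent of E protein reads held by Tcf12 with 95% Wilson intervals. The ratio falls from 2.26 and 2.47 on day 7 to 1.47 and 1.46 on day 10, and the Tcf12 share is above 9% in the Il21r-/- libraries and below 9% in the WT libraries.

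With time, no member passed the linear day term shared by both genotypes (4.43% of all genes did). The fitted log2 change from day 7 to day 14 was 0.29 ± 0.167 SE for Tcf3 (adjusted p = 0.350), -0.08 ± 0.171 for Tcf4 (adjusted p = 0.804) and 0.16 ± 0.153 for Tcf12 (adjusted p = 0.580) in edgeR's quasi-likelihood test. For the inhibitors it was -0.27 ± 0.155 for Id2 (adjusted p = 0.325) and -0.17 ± 0.132 for Id3 (adjusted p = 0.468) in the same edgeR fit. With day as a factor, Tcf3 was 1.25-fold higher on day 14 than on day 7 (0.32 ± 0.0906, adjusted p = 0.00909, edgeR), in a fit in which 26.2% of all genes passed. The values of the other 4 were close to those of the linear term and did not pass. Each day had 1 library per genotype, and the study's methods name independent immunizations that the labels do not assign to libraries. Differences between days, also those below, thus cannot be told apart from those of an immunization, sort or preparation shared by the libraries of a day.

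Because Tcf3 and Tcf4 peaked on day 10 in both genotypes, day 10 was also compared with the mean of days 7 and 14, a comparison chosen after these values had been seen, in which 15% of all genes passed and 9.17% were higher on day 10. In this fit Tcf3 was 1.23-fold higher on day 10 (0.30 ± 0.0783, adjusted p = 0.00938, edgeR) and Tcf4 1.22-fold higher (0.28 ± 0.0927, adjusted p = 0.0368, edgeR). Tcf12 (0.17, adjusted p = 0.267) and Id3 (-0.18, adjusted p = 0.133) did not pass in edgeR. The call of Tcf3 was lost without the day 7, day 10 or day 14 library of Il21r-/- cells (adjusted p = 0.0662, 0.46 and 0.115, edgeR), with log2 values of 0.267, 0.267 and 0.266, and that of Tcf4 was lost under 8 of 11 alternatives.

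No member passed the test of a difference between genotypes in its change with time. Of the 11005 genes, 0 passed edgeR's quasi-likelihood test of this difference and 0 the Wald test of DESeq2, while 118 (1.07%) had an unadjusted p under 0.05 in edgeR. Tcf4 had the widest difference, a change from day 7 to day 14 that was 0.44 ± 0.353 SE higher in WT (95% confidence interval -0.38 to 1.27, adjusted p = 1, edgeR), which turned to -0.27 without the Il21r-/- day 14 library.

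Genes around the family were taken from 4 lists of 55 genes, of which 44 were tested. Over 3 days 1 of them passed the genotype test, beside 5.92% of all genes. In the blocked fit 6 were higher and 9 lower in WT, where 22.9% of all genes passed and 9.33% were higher in WT. List genes named below for any other value were chosen after their values were seen. These lists and the marker lists below were drawn up with earlier results of these data known. Their counts beside the rates of all genes are thus description only. The partners and competitors of E proteins, which include Lyl1 and Lmo2 of the hematopoietic E protein complex, the E box repressor Zeb1 and the coactivators Ep300 and Crebbp, had 11 of 15 members tested and 0 called (median log2 fold change -0.11, against -0.01 over all genes tested). Tal1, the usual bHLH partner of Lmo2, and the corepressor Runx1t1 had 0 reads in all libraries. Lyl1 had 113.5 to 129.5 CPM and Lmo2 118.6 to 186.1 CPM. In the blocked fit 2 partners passed, both lower in WT. They were the E box repressors Bhlhe40 (-0.70, adjusted p = 0.00383) and Bhlhe41 (-0.75, adjusted p = 0.0372, edgeR). Bhlhe40 also fell with time in the linear term (-1.74, adjusted p = 0.0146, edgeR), from 10.96 and 12.66 CPM on day 7 to 2.529 and 4.898 CPM on day 14 in WT and Il21r-/- cells.

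Of 20 genes that E proteins are known to activate or repress in the B lineage, 15 were tested and 1 was called over 3 days (median -0.06). This was Pax5, the B cell identity factor, with 89.3, 82.81 and 67.81 CPM in WT and 105.1, 150.2 and 125.2 CPM in Il21r-/- cells, lower in WT at a log2 fold change of -0.67 (adjusted p = 0.0387, edgeR). The groups did not overlap. Ebf1, an early target of E2A, had a value of 0.28 (adjusted p = 0.297, edgeR). In the blocked fit 2 of the 15 were higher and 5 lower in WT. The higher ones were Ebf1 (0.29, adjusted p = 0.0377) and Bcl6 (0.25, adjusted p = 0.0211), and the lower ones included Pax5 (-0.66), Irf4 (-0.47), Cd79b (-0.36) and Cd79a (-0.34, edgeR). Rag2 and Igll1, targets of earlier B cell stages, had 0 reads.

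Of 14 genes of the BMP, TGF-beta and EGR pathways that act upstream of Id genes, 12 were tested and 0 were called over 3 days (median -0.22). The BMP receptor genes Bmpr2 and Acvr1 had at most 6 reads in any library. Bmpr1a rose with time, with 8.721, 19.68 and 30.2 CPM in WT and 8.422, 12.12 and 19.75 CPM in Il21r-/- cells (log2 change 1.48 from day 7 to day 14, adjusted p = 0.0104, edgeR). In the blocked fit Bmpr1a was higher in WT (0.48, adjusted p = 0.00637) and Smad1 (-0.51, adjusted p = 0.0428) and Tgfbr1 (-0.32, adjusted p = 0.00296, edgeR) lower.

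The 6 genes of Id and E protein turnover had positive values over 3 days, with WT higher in 6 of 6, and 0 passed. Their median was 0.25, against -0.01 over all genes tested, and the share of all genes with a positive value was not computed. On day 10 alone, Huwe1 was lower in WT, with 161.6 CPM against 185.2 CPM in Il21r-/- cells. The list includes Usp1, which removes ubiquitin from Id proteins, and Fzr1 and Cdc20, activators of the anaphase-promoting complex. In the blocked fit 3 were higher in WT, as were 9.33% of all genes. They were Usp1 (0.29, adjusted p = 0.00827), Cdc20 (0.24, adjusted p = 0.0237) and the F box gene Skp2 (0.37, adjusted p = 0.00679, edgeR).

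Some of the zone and B cell markers differed by genotype in the same libraries. The 12 light zone (LZ) markers summed to 1120 to 1428 CPM in WT and 1884 to 2207 CPM in Il21r-/- libraries. Over 3 days 4 of 12 were lower in WT, Cd83 (-0.93, adjusted p = 0.00669), Cd40 (-0.53, adjusted p = 0.0164), Cd69 (-0.76, adjusted p = 0.00865) and Bcl2a1b (-1.12, adjusted p = 0.0118, edgeR). The median log2 fold change of the 12 was -0.05 on day 7, -0.58 on day 10 and -0.69 on day 14, with 1 library per genotype and day. The 6 dark zone (DZ) markers summed to 2185 to 2404 CPM in WT and 2013 to 2276 CPM in Il21r-/- libraries. This list leaves out mitotic genes, so that part of the DZ program is not covered. With the linear day term 0 of 6 were called (median 0.10). In the blocked fit Polh (0.32, adjusted p = 0.00308) and Lig4 (0.28, adjusted p = 0.0336, edgeR) were higher in WT and 0 were lower. In that fit 9.33% of all genes were higher in WT. The 8 markers of B cells outside the GC summed to 307.3 to 744.5 CPM in WT and 731 to 1191 CPM in Il21r-/- libraries. Over 3 days 5 of 8 were lower in WT, beside 5.92% of all genes called in either direction. Among them were Gpr183 (-2.23, adjusted p = 0.00101), Ccr7 (-1.81, adjusted p = 0.00322), Fcer2a (-1.54, adjusted p = 0.00119) and Klf2 (-1.02, adjusted p = 0.00386, edgeR). Ighd (-0.13), Cr2 (-0.16) and Cd38 (-0.36) were not called, and each of these was higher in WT on day 7. The 4 plasma cell markers summed to 2501 to 2716 CPM in WT and 2738 to 3583 CPM in Il21r-/- libraries. Most of this was Jchain, with 2283 to 3314 CPM, which was not called. Prdm1 was higher in WT (1.65, adjusted p = 0.0216) and Xbp1 lower (-0.39, adjusted p = 0.0396, edgeR), while Sdc1 stayed under 1 CPM. Prdm1 was near the filter on low counts, with 1.392 to 1.829 CPM in WT and 0.2618 to 0.6825 CPM (6 to 17 reads) in Il21r-/- libraries. The part of these markers in the values of Tcf3, Tcf4 and Tcf12 was not tested.

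**Figure D5:**
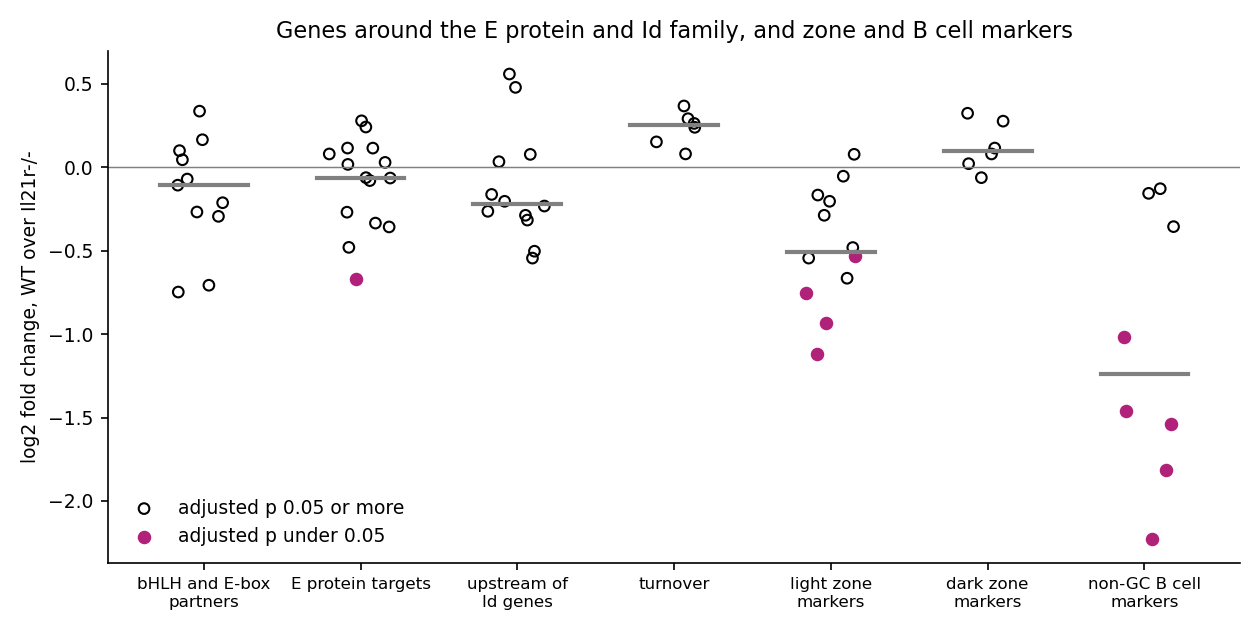
Log2 fold change of WT over Il21r-/- over 3 days for each tested gene of 4 lists around the E protein and Id family and of 3 marker lists, with grey bars at the medians and filled points for genes with an adjusted p under 0.05. In the 4 family lists Pax5 is the 1 filled point, whereas 4 light zone and 5 non-GC B cell markers are filled, all lower in WT. The dark zone list leaves out mitotic genes. Egr1, Egr2 and Egr3 are in both the upstream and the light zone list, and the target and dark zone lists also share genes, among them Foxo1 and Cxcr4.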

How the data were processed

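RNA-seq libraries were single-end, made with a TruSeq kit. The authors aligned reads to mm10 with Rsubread, counted them with featureCounts on its inbuilt RefSeq genes and pooled technical replicates (the submitters' notes also name CASAVA 1.8.2). They deposited whole-number counts per gene without normalization. Strand and multi-mapping settings are not given in the sources used here. The series table and the 6 single-library files were identical, and 0 columns lacked a sample. Groups and days came from the labels. Of 27179 Entrez identifiers, 25275 matched a RefSeq symbol and 18 a GENCODE symbol only. The other 1886 held 1.57 to 2.24% of reads and stayed in the library totals.

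With R 4.3.3 and edgeR 4.0.16, the filter kept 11005 genes (average log2 CPM of 0 or more, without Ig variable genes, Xist and genes on the Y chromosome). The study's methods report somewhat more genes kept. TMM factors and robust dispersions with genotype and a linear day term followed those methods, as did likelihood ratio tests of separate genotype effects per day. The methods do not say whether that fit kept the linear day term. Here each day had its own mean, and keeping the linear term was an alternative. Effects over 3 days and of time, which the study's methods do not describe, used edgeR's quasi-likelihood test. The p-values were adjusted by the Benjamini-Hochberg method across these genes, with a threshold of 0.05. CPM per kilobase used the gene lengths in the files. A count of 0 allows up to 3 reads per library, and intervals cover counting error only.

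The day pairs libraries of the 2 genotypes, as deviations from genotype means correlated across genes at r = 0.640, 0.413 and 0.645 on days 7, 10 and 14. Genes are not independent replicates. Alternatives were day as a block, DESeq2 1.42.0 (size factors, Wald test), other filters and leaving out each library. For the day-wise effects, a library was left out of the dispersions only. The steps were tested on simulated data. Promoter windows came from RefSeq (GRCm38.p6) and similar transcripts from blastn 2.17.0. Windows of 4 members were used, Tcf3, Tcf12, Id2 and Id3, and any window on chromosome 18, where Tcf4 lies, was left out.

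The members and lists were chosen with earlier results of these data known. The genes named were the 6 members, Il21r, list members called over 3 days (at most 4 per list) and those said to be chosen after their values were seen. No member spanned over 1 log2 unit across libraries, the limit set for naming genes of like profile. Id1 and Id4 did not pass the filter, and the fit without a filter is not used for them. Some list genes are not reported here by name.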

Additional observations from a re-analysis of the deposited data

How the results depend on the processing

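Over 3 days, 0 members were called with a linear day term and 2 with the replicate block by day. With 1 library left out, the count was 0 to 2 without the block and 0 to 1 with it, where each omission takes out its whole day. All genes called numbered 651 with the linear term, 2519 with the block, 1193 by the likelihood ratio test, 991 without a filter, and 132 to 2519 over all alternatives. On day 14, 1 member (Tcf4) was called with dispersions from the block, and 0 to 1 with dispersions estimated without 1 library. With the linear day term kept, Tcf3 on day 10 moved from 0.163 to 0.392 and Tcf4 on day 7 from 0.186 to 0.053 (DESeq2 0.397 and 0.073). Id3 on day 10 turned to -0.02 (-0.018) with the linear day term kept and -0.016 in DESeq2. With time, 1 member (Tcf3) was called with day as a factor, and Tcf4 ranged from -0.292 to 0.179 with a library left out, turning to 0.18 without the Il21r-/- day 14 library. The genotype difference in the change with time of Tcf4 ranged from -0.269 to 1.025 with a library left out, the lowest being without that library. For day 10 against days 7 and 14, 2 members were called, 1 with at least 10 counts in every library, 1 with the left-out genes kept, 1 in DESeq2, and 0 to 2 with a library left out. All genes called there numbered 1648, and 13 without the Il21r-/- day 10 library. The cause of these changes was not tested. The median log2 ratio of E protein to Id counts turned from -0.79 to 1.31, the Tcf3 share moved from 80.1% to 68.0% and the Id3 share from 95.6% to 94.2% when counts were not divided by length. The block changed no other member's call. All genes called on single days numbered 118, 341 and 361 on days 7, 10 and 14, against 32, 132 and 94 in DESeq2 and 303, 822 and 1055 with block dispersions, and for the day trend 488, against 2880 with day as a factor and 0 without the WT day 7 library. With 1 library per genotype and day, the day-wise standard errors of 0.218 to 0.270 log2 units limit what a single day can show for these members.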
